A study of Homo sapiens with 6 samples.

Results

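ASS1 and the other genes of arginine metabolism were followed across 6 two-colour Agilent arrays of 22RV1 cells, an established human prostate cancer line that the labels describe as SPINK1 positive. The 10 genes were ASS1, ASL, ARG1, ARG2, OTC, CPS1, NAGS, SLC7A1, SLC25A15 and ODC1, out of 43317 gene names on the array, and every probe carrying 1 of these names was used, which made 13 of 58201 probes. ASS1 was chosen by its log2 ratios on these arrays, which were low and even on all 6, so its values are given as a description with no test. The other 9 genes were picked for their place in the pathway, with earlier results of these data known. Their tests are therefore not free of selection.

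The stable lines carried 1 of 3 lentiviral vectors: pLemiR-338-5p for miR-338-5p, pLemiR-421 for miR-421, or pLemiR-RFP, which encodes a red fluorescent protein and served as control. All were grown in RPMI medium with fetal bovine serum, penicillin, streptomycin and puromycin, so selection with puromycin was common to the lines and the control. Control RNA was labelled with Cy3 and RNA of the miRNA line with Cy5 on every array, with 3 arrays for miR-338-5p (replicates 1, 2 and 3) and 3 for miR-421 (a sample named a pool, and replicates 1 and 2). The labels do not say whether a line was 1 clone, what was pooled, what the letter C before a replicate number means, or whether 1 control culture supplied all arrays. The RNA was tailed with poly(A) and then primed with oligo-dT. The p-values therefore measure the spread between these samples, which may be technical, and where 1 control served all arrays they leave out the control's own spread.

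Arginine is made from citrulline in 2 steps of the urea cycle. ASS1, argininosuccinate synthase, joins citrulline to aspartate, and ASL, argininosuccinate lyase, splits the product into arginine and fumarate. The arginases ARG1 (cytosolic, liver type) and ARG2 (mitochondrial) break arginine into urea and ornithine, and ornithine goes on to polyamines through ODC1 or back to citrulline through OTC. The complete cycle runs in liver, while ASS1 and ASL are also active in many other tissues as a route to arginine. Low ASS1 is known from several tumour types, whose cells then depend on arginine taken up from outside.

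The miRNAs are shown first because their seeds, bases 2 to 8 counted from the 5′ end and written in capitals, set which messenger RNAs they can pair with. The sequences are those of RefSeq (GRCh38.p14). The mature miR-338-5p lies at chr17:81125923-81125944 and the mature miR-421 at chrX:74218392-74218414, both on the minus strand.
miR-338-5p: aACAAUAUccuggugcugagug
miR-421: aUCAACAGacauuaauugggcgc
The seeds differ, ACAAUAU in miR-338-5p and UCAACAG in miR-421. The DNA letters opposite the miR-338-5p seed, ATATTGT, stand in 278 of the 58201 probes (0.478%) and in 1 of the 13 probes of the arginine genes. Those opposite the miR-421 seed, CTGTTGA, stand in 325 probes (0.558%) and in none of the 13 (0). The strand searched was that of the probe, which has the sense of the transcript. A match describes the letters of a 60-base probe and is no site, and these windows leave out most of each transcript.

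The next sequences are probes of ASS1 and of both arginases, ARG2 with a signal and ARG1 without. They are printed as the array files give them, 5′ to 3′, each 60 bases long. The capitals in the ARG2 probe, bases 26 to 32, mark the letters opposite the miR-338-5p seed.
ASS1, second probe: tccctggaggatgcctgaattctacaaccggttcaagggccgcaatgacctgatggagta
ARG2: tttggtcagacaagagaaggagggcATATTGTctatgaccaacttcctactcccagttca
ARG1: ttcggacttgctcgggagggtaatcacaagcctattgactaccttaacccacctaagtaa
The longest run of letters that the ARG2 probe shares with an ARG1 probe is 6 bases. No other probe on the array shared a run of 20 bases with any of the 13 (0 for each). RefSeq lists 14 pseudogenes named ASS1P, no probe carries such a name (0), and signal from transcripts of these copies cannot be told apart from that of ASS1 here.

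Of the 13 probes, 10 probes of 8 genes were well above background in both dyes on all 6 arrays and were tested among 27503 probes. The remaining 3 were both probes of ARG1 (NM_001244438, chr6:131905353-131905412 and chr6:131904989-131905048) and that of OTC (NM_000531, chrX:38271152-38271211), whose signals did not stand well above background on any array, in Cy3 or Cy5 (0 of 6). No level or ratio is given for these. All positions of probes are on hg19, as the files give them. No member spot was saturated on any array. Among gene spots, 44.3% to 47.9% were well above background in Cy3 and 41.9% to 48.3% in Cy5, lowest on miR-421 replicate 1.

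ASS1 (NM_000050; the representing probe, which has the highest mean intensity of the gene's probes, lies at chr9:133376601-133376660, plus strand) had a low signal in both miRNA lines on every array. Its log2 ratio, the miRNA line over control, was -3.85, -3.49 and -3.70 on miR-338-5p replicates 1, 2 and 3. On the miR-421 pool and replicates 1 and 2 it was -3.77, -3.33 and -3.72. All 6 values lay within 0.51 of each other, and the values of the lines overlapped. The mean was -3.68 ± 0.18 (SD, n = 3) for miR-338-5p, a signal 12.8-fold lower than control, and -3.61 ± 0.24 (SD, n = 3) for miR-421, 12.2-fold lower. Without a dye swap, a dye bias of this probe would be part of both values, and it was not tested. In RNA from a whole culture, fewer cells with the transcript and less transcript per cell cannot be told apart.

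Expressed as a share, the Cy5 signal of ASS1 was 6.94%, 8.92% and 7.67% of the Cy3 signal for miR-338-5p and 7.31%, 9.92% and 7.57% for miR-421, in the same order of arrays. The log2 level in control (Cy3, normalized intensity) was 13.33, 13.28, 13.25, 13.14, 13.18 and 13.05 over the 6 arrays, a range of 0.28. In the miRNA lines (Cy5) it was 9.49, 9.79, 9.55, 9.37, 9.84 and 9.33, a range of 0.52. The dyes were thus far apart on each array, and the level in either dye varied little.

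The second ASS1 probe (chr9:133342120-133342179) gave log2 ratios of -3.11, -2.89 and -3.12 for miR-338-5p and of -3.06, -2.39 and -3.08 for miR-421. Its means were -3.04 ± 0.13 (SD, n = 3; 8.23-fold lower) and -2.85 ± 0.40 (SD, n = 3; 7.19-fold lower). This probe has the same direction on all arrays and a smaller ratio than the first on each. Its raw Cy5 intensity was low, at 61.7 to 75.9, beside an offset of 50 in the background correction. The part of this in the smaller ratio was not tested. The array that departs most is miR-421 replicate 1, where both probes had their highest ratio. In the authors' deposited table, ASS1 stood at log2 ratios of -3.95, -3.52, -3.89, -3.88, -3.10 and -3.86.

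**Figure D1:**
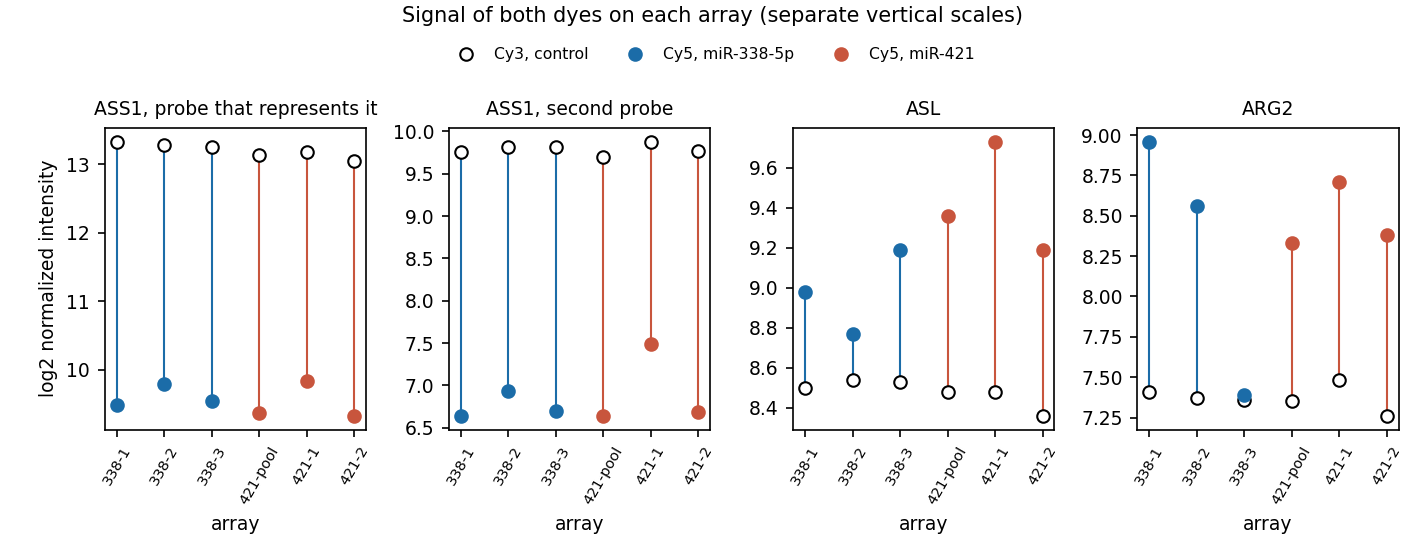
Log2 normalized intensity in Cy3 (control, open circles) and Cy5 (miRNA line, filled circles) on each of the 6 arrays, with 1 panel per probe and a separate vertical scale in each. For both ASS1 probes the miRNA line lies far below control on every array. For ASL it lies above control on every array, and for ARG2 the dyes almost meet on miR-338-5p replicate 3 (log2 ratio 0.03).

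Among all tested probes, that of ASS1 had the 2nd lowest mean ratio for miR-338-5p and the 8th lowest for miR-421. A ratio below -1, at least a 2-fold lower signal, on all 6 arrays was found for 43 probes of 39 genes, and 6 probes were at least 2-fold higher on all 6. Within the 43, the mean of ASS1 over all arrays was the 3rd lowest and its range the 7th smallest, against a median range of 0.94. As these values chose the gene, the ranks only describe it.

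ASL, which completes the synthesis of arginine after ASS1, had ratios above 0 on every array and rose under miR-421. Its probe (NM_001024943, chr7:65554654-65557023, a span longer than the probe itself, plus strand) gave log2 ratios of 0.48, 0.23 and 0.66 on the miR-338-5p arrays and of 0.87, 1.25 and 0.83 on the miR-421 arrays. All 6 were above 0, and the 3 miR-421 values lay above the 3 of miR-338-5p. For miR-421 ASL rose by a log2 ratio of 0.98 ± 0.23 (SD, n = 3), 1.98-fold, with a limma adjusted p of 0.0064, and it stayed past the threshold in all 18 alternatives. For miR-338-5p the mean was 0.46 ± 0.22 (SD, n = 3), and the limma adjusted p was 0.061 (95% interval 0.18 to 0.74). The difference between the lines, miR-338-5p minus miR-421, was -0.53 (95% interval -0.92 to -0.13) and missed the threshold after limma's adjustment over all probes (adjusted p 0.26). ASL thus lay opposite in sign to ASS1, the step before it, on every array.

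ARG2, the mitochondrial arginase, was the one arginase with a measured signal. Its probe (NM_001172, chr14:68117539-68117598, plus strand), whose sequence is printed with the seed match, had log2 ratios of 1.55, 1.20 and 0.03 for miR-338-5p and of 0.98, 1.23 and 1.13 for miR-421. The miR-421 arrays agree closely, while miR-338-5p replicate 3 lay near 0, apart from the other arrays of that line. For miR-421 ARG2 rose by 1.11 ± 0.12 (SD, n = 3), 2.16-fold, with a limma adjusted p of 0.037. That call was lost in 6 of 18 alternatives (limma adjusted p 0.00803 to 0.142), among them leaving out the miR-421 pool (0.0975), miR-421 replicate 1 (0.122), miR-421 replicate 2 (0.142) or miR-338-5p replicate 2 (0.0508). For miR-338-5p the mean was 0.93 ± 0.79 (SD, n = 3; limma adjusted p 0.089, 95% interval 0.27 to 1.59). Without miR-338-5p replicate 3 it was 1.37 with a limma adjusted p of 0.0327. The lines differed by -0.18 (95% interval -1.12 to 0.75; limma adjusted p 0.88), and without miR-338-5p replicate 3 that difference was 0.26.

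The control level of ARG2 was even, with log2 intensities of 7.26 to 7.48 in Cy3, and the spread lay in Cy5 (7.39 to 8.96). The control level of ASL was even as well (8.36 to 8.54 in Cy3, 8.77 to 9.73 in Cy5).

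SLC7A1 is the main carrier that takes arginine and other cationic amino acids into the cell. Its log2 ratios were 0.69, 0.57 and 0.32 for miR-338-5p and 0.48, 0.04 and 0.45 for miR-421 (NM_003045, chr13:30084093-30084152, minus strand). All 6 lay above 0 and the lines overlapped. For miR-338-5p SLC7A1 rose by 0.53 ± 0.19 (SD, n = 3), 1.44-fold, with a limma adjusted p of 0.043. The call was lost in 12 of 18 alternatives (limma adjusted p 0.0224 to 0.344). It was lost without any 1 of the miR-338-5p replicates 1 (0.149), 2 (0.147) and 3 (0.0837), the miR-421 pool (0.0704) and miR-421 replicate 2 (0.0813), and with median centring the value was 0.32. For miR-421 the mean was 0.32 ± 0.25 (SD, n = 3; limma adjusted p 0.09, 95% interval 0.05 to 0.60). The lines differed by 0.21 (95% interval -0.18 to 0.60; limma adjusted p 0.62).

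The mitochondrial steps before ASS1 gave small ratios. NAGS makes N-acetylglutamate, the activator that CPS1 needs, and CPS1 makes the carbamoyl phosphate that OTC joins to ornithine. The log2 ratios of NAGS were -0.07, -0.12 and -0.47 for miR-338-5p and -0.56, -0.19 and -0.25 for miR-421 (NM_153006, chr17:42086302-42086361, plus strand). All 6 lay below 0. The means, -0.22 ± 0.22 and -0.33 ± 0.20 (SD, n = 3 each), missed the threshold in the limma fit (adjusted p 0.25 and 0.074).

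CPS1 (NM_001875, chr2:211543741-211543800, plus strand) had log2 ratios of -0.01, 0.17 and 0.05 for miR-338-5p and of -0.09, -0.39 and -0.56 for miR-421. The 3 miR-421 values lay below the 3 of miR-338-5p. The mean was 0.07 ± 0.09 (SD, n = 3; limma adjusted p 0.71) for miR-338-5p and -0.35 ± 0.24 (SD, n = 3; limma adjusted p 0.051, 95% interval -0.58 to -0.11) for miR-421. The miR-421 value passed the threshold in 8 of 18 alternatives. Its size depended on the background correction, at -0.84 with the local background subtracted and -0.53 with none, and the raw Cy3 intensity of this probe was 67.0 to 82.6. The difference between the lines was 0.41 (95% interval 0.08 to 0.75) with a limma adjusted p of 0.28.

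SLC25A15, the carrier that brings ornithine into mitochondria, gave log2 ratios of -0.25, -0.22 and -0.13 for miR-338-5p and of -0.04, 0.20 and -0.22 for miR-421 (NM_014252, chr13:41383905-41383964, plus strand). Its second probe (chr13:41383861-41383920), which overlaps the first, gave -0.03, -0.11 and 0.08, and 0.13, 0.11 and -0.01. The means of the first were -0.20 ± 0.06 and -0.02 ± 0.21 (SD, n = 3 each; limma adjusted p 0.2 and 0.88), and those of the second -0.02 ± 0.09 and 0.08 ± 0.08 (limma adjusted p 0.9 and 0.42). None of the 4 means passed the threshold.

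ODC1 makes putrescine, the first polyamine, from ornithine. Its log2 ratios were 0.60, 0.71 and -0.09 for miR-338-5p and 0.20, -0.31 and 0.31 for miR-421 (NM_002539, chr2:10580788-10580847, minus strand). As for ARG2, replicate 3 was the lowest of the miR-338-5p arrays, and as for SLC7A1, replicate 1 was the lowest of the miR-421 arrays. The means were 0.40 ± 0.43 (95% interval -0.05 to 0.86) and 0.07 ± 0.33 (95% interval -0.39 to 0.52; SD, n = 3 each), with limma adjusted p of 0.23 and 0.83.

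**Figure D2:**
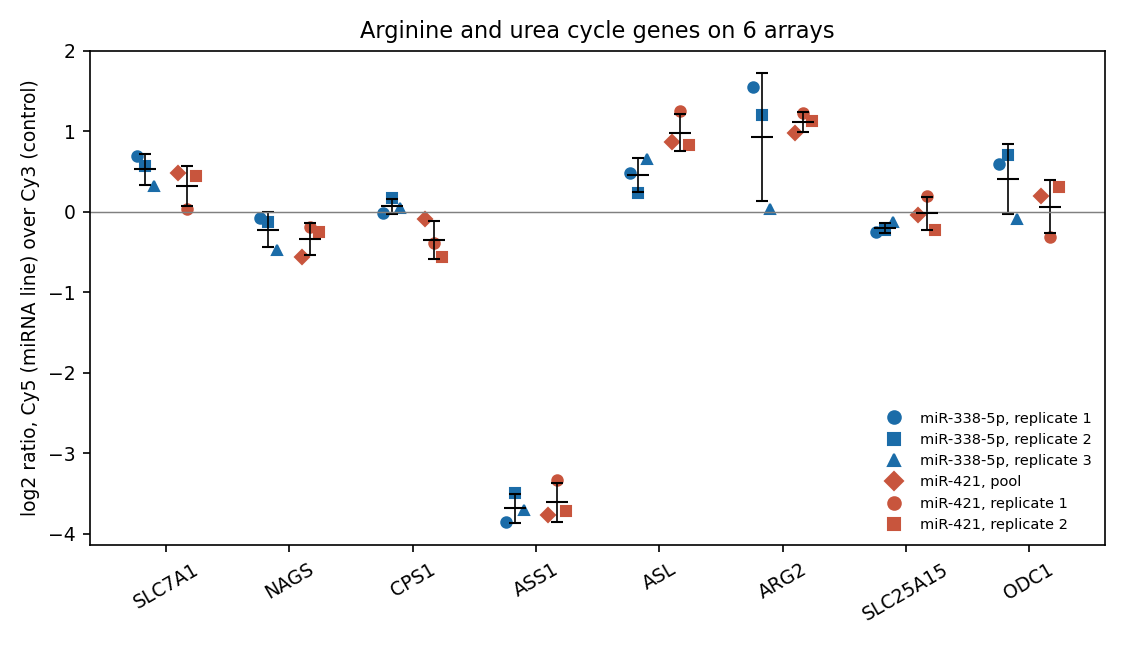
Log2 ratio of the miRNA line over control on each array for the 8 arginine genes with a tested probe (points, 1 per array), with the mean and SD of 3 arrays per line (black bars). ASS1 lies between -3.85 and -3.33, all other values lie between -0.56 and 1.55, and ASL is above 0 on all 6 arrays.

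Of the 7 tested genes besides ASS1, 1 was past the threshold of an adjusted p under 0.05 for miR-338-5p (SLC7A1, higher), where 9% of 27501 probes were called and 3.79% were called higher. For miR-421 it was 2 of 7 (ASL and ARG2, both higher), where 21.6% of 27491 probes were called and 9.19% were called higher. The 7 genes had a median log2 ratio of 0.40 under miR-338-5p, and of 0.07 under miR-421, beside a median of 0 over all tested probes in either comparison. In the difference between the lines 0 of 7 were called by limma, where 0.0473% of 27489 probes were, and 2 of 7 (ASL and CPS1) had an unadjusted p under 0.05, as did 13.7% of all probes. Over the alternatives the first count was 0 to 2 and the second 1 to 3. Both comparisons rest on control RNA that may be shared.

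Beyond the members, 89 genes of 9 lists around arginine were on the array, and 76 had a tested probe. The lists were chosen with earlier results of these data known, so their shares of calls only describe them. For miR-338-5p 10 of 76 rose (13.2%) and 2 fell (2.63%), where 3.79% of all probes were called higher and 5.22% lower. For miR-421 12 rose (15.8%) and 9 fell (11.8%), where 9.19% were called higher and 12.5% lower. The medians of the 76 log2 ratios were -0.02 and -0.03. With median centring in place of loess, 9 rose and 4 fell for miR-421. No gene of the lists was called in the difference between the lines by limma (0 of 76, with 13 at an unadjusted p under 0.05).

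These counts moved with single arrays. For miR-338-5p the 12 calls became 2 to 6 when any 1 array other than miR-421 replicate 1 was left out (4, 3 and 2 without miR-338-5p replicates 1, 2 and 3, 6 without the miR-421 pool, 5 without miR-421 replicate 2), and 19 without miR-421 replicate 1. For miR-421 the 21 calls became 3 without miR-421 replicate 2 and 10 without miR-421 replicate 1.

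The transcription factors known to act on ASS1 or urea cycle genes held 2 that rose under each miRNA, of 8 tested. For this and the following lists, the shares over all probes were 3.79% higher and 5.22% lower for miR-338-5p. For miR-421 they were 9.19% higher and 12.5% lower. CEBPB, a factor of stress and inflammation that binds as a dimer with other C/EBP proteins, had log2 ratios of 1.40, 0.98 and 1.28 for miR-338-5p and of 1.17, 1.09 and 1.44 for miR-421. The values of both lines lay in 1 narrow band. It rose by 1.22 ± 0.21 (SD, n = 3; 2.33-fold, limma adjusted p 0.0061) and by 1.24 ± 0.18 (SD, n = 3; 2.36-fold, limma adjusted p 0.0032). CEBPA, which drives urea cycle genes in liver, rose by 0.70 ± 0.18 and 0.95 ± 0.21 (SD, n = 3 each; limma adjusted p 0.02 and 0.0057). MYC, HIF1A, SP1, SP4 and NR3C1 did not pass the threshold, and HNF4A, a liver factor, was not well above background. The list's median was 0.06 and -0.15.

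In the list for arginine sensing and charging, ATF4, the factor that turns on amino acid synthesis and uptake when amino acids run short, had log2 ratios of 0.92, 0.91 and 1.11, and of 0.88, 0.54 and 0.98. All 6 arrays lay on the same side. It rose by 0.98 ± 0.11 (SD, n = 3; 1.97-fold, limma adjusted p 0.0083) and by 0.80 ± 0.23 (SD, n = 3; 1.74-fold, limma adjusted p 0.0071). SLC38A9, the arginine sensor of the lysosome, fell by 0.60 ± 0.38 under miR-421 (SD, n = 3; limma adjusted p 0.034), and by 1.05 with the local background subtracted. For miR-338-5p 1 of the 7 genes rose, and for miR-421 1 rose and 1 fell. The medians were -0.14 and -0.11.

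Of 7 carriers of cationic amino acids and of mitochondria, 1 rose under each miRNA. This was SLC3A2, the heavy chain that pairs with several amino acid carriers at the cell surface. Its log2 ratios were 1.38, 0.92 and 1.28 for miR-338-5p and 1.07, 1.53 and 1.64 for miR-421, high on all 6 arrays. The means were 1.19 ± 0.24 (SD, n = 3; 2.28-fold, limma adjusted p 0.012) and 1.41 ± 0.30 (SD, n = 3; 2.66-fold, limma adjusted p 0.0045). The list's medians were 0.03 and -0.23.

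Aspartate is the other substrate of ASS1, and fumarate the other product of ASL. Of 12 genes of aspartate, fumarate and pyrimidine metabolism, 1 rose for miR-338-5p, and 2 rose and 3 fell for miR-421, with medians of -0.15 and 0.06. ASNS, which makes asparagine from aspartate, had log2 ratios of 1.83, 1.04 and 0.69, and of 0.62, 1.42 and 1.39. The arrays of either line differed by more than the means did. ASNS rose by 1.19 ± 0.58 (SD, n = 3; 2.28-fold, limma adjusted p 0.041) and by 1.14 ± 0.45 (SD, n = 3; 2.2-fold, limma adjusted p 0.028). DHODH, a step of pyrimidine synthesis, fell by 0.71 ± 0.32 under miR-421 (SD, n = 3; limma adjusted p 0.031).

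Of 3 tested genes for nitric oxide and methylated arginine, 1 fell under each miRNA, and the medians were -0.48 and -0.36. It was DDAH1, which breaks down the methylated arginines that inhibit nitric oxide synthases. The log2 ratios of DDAH1 were -1.24, -0.96 and -2.29 for miR-338-5p and -1.60, -2.82 and -1.73 for miR-421. Every array was below 0, with 1 array of each line well below the other 2. The means were -1.50 ± 0.70 (SD, n = 3; limma adjusted p 0.045) and -2.05 ± 0.67 (SD, n = 3; 4.14-fold lower, limma adjusted p 0.013). The nitric oxide synthases NOS1 and NOS2 were not well above background.

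Proline and polyamines are made from ornithine. Of 11 genes of ornithine, proline and glutamate, 3 rose for miR-338-5p, and 2 rose and 1 fell for miR-421 (medians 0.18 and 0.12). PYCR1, the last step of proline synthesis, rose by 0.82 ± 0.24 and 0.94 ± 0.24 (SD, n = 3 each; limma adjusted p 0.02 and 0.0081), with 0.40 and 0.52 by its other probe. ALDH4A1, of proline breakdown, rose by 0.90 ± 0.06 under miR-421 (SD, n = 3; limma adjusted p 0.028), against 0.04 by its other probe. Of 16 polyamine genes, 2 rose and 1 fell for miR-338-5p, and 2 rose and 2 fell for miR-421 (medians 0.01 and 0.15). MTAP, which salvages methylthioadenosine left by polyamine synthesis, fell by 0.68 ± 0.13 and 0.74 ± 0.37 (SD, n = 3 each; limma adjusted p 0.04 and 0.019), and its other probes gave -0.40 and -0.21 for miR-338-5p and -0.36 and -0.13 for miR-421. DHPS, which uses spermidine to modify the translation factor eIF5A, rose by 0.70 ± 0.20 under miR-421 (SD, n = 3; limma adjusted p 0.019).

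Creatine and methylated proteins also draw on arginine. Of 5 creatine genes, GAMT, the last step of creatine synthesis, rose under miR-421 with log2 ratios of 0.54, 0.54 and 0.52 (0.53 ± 0.01, SD, n = 3; limma adjusted p 0.013). For the other miRNA none was called by limma (0 of 5, with 2 at an unadjusted p under 0.05, as had 27.2% of all probes). The list's medians were -0.04 and -0.10. Of 7 protein arginine methyltransferases, PRMT1 rose by 0.84 ± 0.41 and PRMT3 fell by 0.44 ± 0.07 under miR-421 (SD, n = 3 each; limma adjusted p 0.032 and 0.022). PRMT3 fell by 0.95 with the local background subtracted. With miR-338-5p limma called none (0 of 7, with 1 at an unadjusted p under 0.05), and the medians were 0.06 and -0.02.

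Each array was left out in turn for these named genes. For miR-421, CEBPB, CEBPA and SLC3A2 kept an adjusted p under 0.05 each time, and the other 12 of the 15 lost it when replicate 2 of miR-421 was left out, at a limma adjusted p of 0.0525 to 0.142. Without miR-421 replicate 1, 7 lost it (ALDH4A1, ASNS, DHODH, DHPS, PRMT1, PRMT3 and SLC38A9), and without the miR-421 pool 4 did (ALDH4A1, DHODH, PRMT3 and SLC38A9). SLC38A9 lost it also without miR-338-5p replicate 1 or 3. For miR-338-5p, CEBPB and ATF4 of the 8 kept it each time, while ASNS, DDAH1 and MTAP lost it without any 1 of the 3 miR-338-5p arrays and also without replicate 2 or the pool of miR-421. PYCR1 lost it without any 1 of the miR-338-5p arrays, CEBPA without miR-338-5p replicate 2 or 3 or miR-421 replicate 2, and SLC3A2 without miR-338-5p replicate 1 or 3. With the variance trended and robust, the call was lost for CEBPB and ATF4 too (limma adjusted p 0.0605 each), and ATF4 lost it with the image software's ratio for either miRNA (limma adjusted p 0.0692 and 0.0878).

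**Figure D3:**
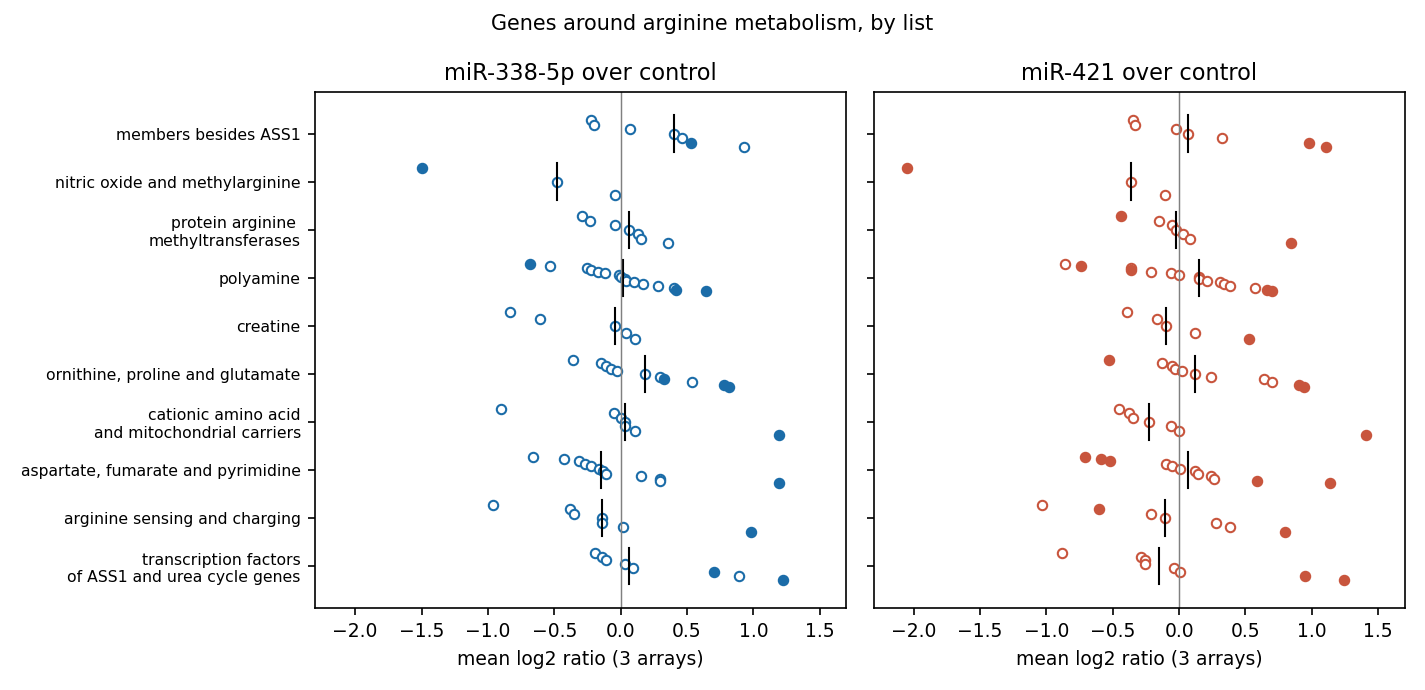
Mean log2 ratio of 3 arrays for each tested gene of the arginine genes besides ASS1 and of the 9 lists, for miR-338-5p (left) and miR-421 (right), with filled points for genes past a limma adjusted p of 0.05 and black bars for the list's median. DDAH1 lies lowest in both panels (-1.50 and -2.05), and CEBPB, SLC3A2 and ASNS lie above 1 in both.

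The genes most like ASS1 were taken by Euclidean distance over the 6 log2 ratios among 15460 genes. The nearest was PCP4L1, a small protein related to PCP4, at a distance of 1.22, with log2 ratios of -3.33, -3.45 and -3.56 for miR-338-5p and of -3.04, -3.02 and -2.97 for miR-421. Its values were about as even as those of ASS1, with a range of 0.58. AKR1C3, an enzyme of androgen synthesis, followed at 2.19 with ratios from -4.55 to -2.07, then CLDN11, a tight junction protein, at 2.22 with ratios from -4.27 to -1.86. DDC, which makes dopamine and serotonin, stood at 2.59 (ratios from -4.52 to -1.66), and TFRC, the transferrin receptor, at 3.56 (ratios from -2.55 to -1.77). AKR1C3, CLDN11 and DDC lay near ASS1 on the miR-421 arrays but spread over 2.41 to 2.86 log2 units across all 6. The arrays share control RNA of 1 kind and 1 dye arrangement.

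**Figure D4:**
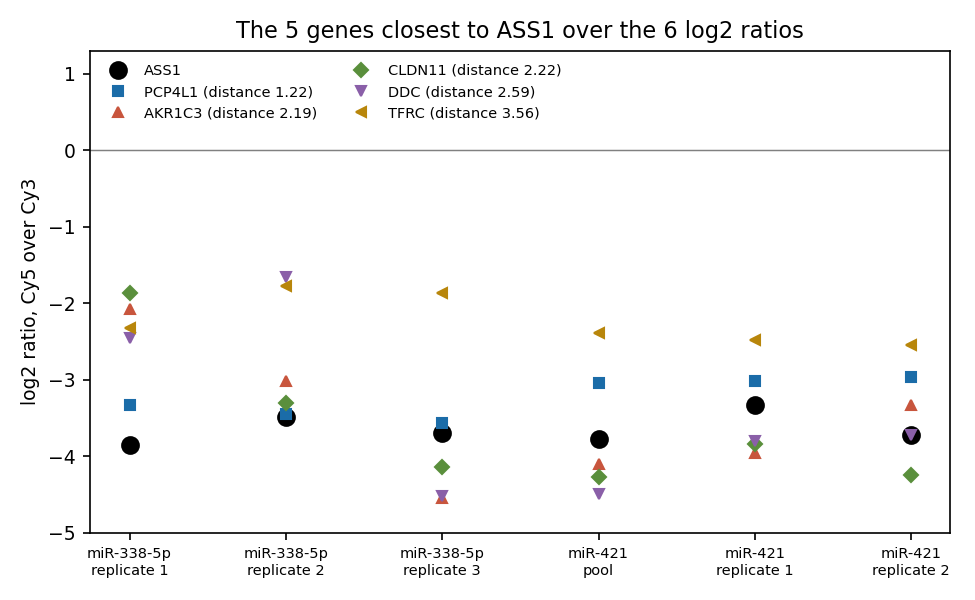
Log2 ratio of the miRNA line over control on each of the 6 arrays for ASS1 (black) and the 5 genes at the smallest Euclidean distance from it. ASS1 and PCP4L1 stay within 0.51 and 0.58 log2 units over the arrays, whereas AKR1C3, CLDN11 and DDC lie higher on miR-338-5p replicate 1 than on replicate 3.

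Genes beside ASS1 on chromosome 9 did not share the size of its ratio. Within 500 kb of its probe lay 18 tested probes of 10 other genes. Their median log2 ratio was -0.16 for miR-338-5p (from -0.98 to 0.27, with 3 probes called lower and 0 higher) and -0.17 for miR-421 (17 probes, from -0.89 to 0.46, with 5 called lower and 2 higher). Over all tested probes, 5.22% were called lower and 3.79% higher for miR-338-5p, and 12.5% lower and 9.19% higher for miR-421. The nearest, HMCN2, an extracellular matrix protein 67100 bases before the ASS1 probe, had the lowest mean in both, at -0.98 and -0.89 (limma adjusted p 0.0059 and 0.0038). Its value was -1.87 and -1.64 with the local background subtracted. On the same side followed NCS1, a neuronal calcium sensor, at -0.49 and -0.36 (limma adjusted p 0.022 and 0.028), and GPR107, whose nearer probe stood at -0.19 and -0.37 (limma adjusted p 0.44 and 0.1). On the other side were FUBP3, at -0.10 and -0.13 by its nearest probe (limma adjusted p 0.4 and 0.2) and -0.60 and -0.70 by its farthest (limma adjusted p 0.1 and 0.045), PRDM12, at -0.23 and -0.20 (limma adjusted p 0.08 and 0.075), and EXOSC2, at -0.35 and -0.39 by its nearest probe (limma adjusted p 0.053 and 0.026). The other EXOSC2 probes gave 0.09 and -0.37 for miR-338-5p, and -0.10 and -0.51 for miR-421, with none of these called.

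The labelled cell type was set against markers. All 10 markers of prostate luminal epithelium were well above background in both dyes on all 6 arrays, and of 4 basal markers KRT5 and TP63 were so on none. The basal marker KRT15 was well above background in both dyes on all 6 arrays, with mean log2 ratios of 0.48 and 0.02 (limma adjusted p 0.11 and 0.94). Among the luminal markers KRT8 fell by 1.31 under miR-338-5p (limma adjusted p 0.0041), and EPCAM fell by 0.90 while KRT18 rose by 0.97 under miR-421 (limma adjusted p 0.015 and 0.014). Each value is that of the probe of highest mean intensity, of 3 tested probes for KRT8, 2 for KRT18 and 1 for EPCAM. The other probes of KRT8 and KRT18 are not reported here. The luminal list's medians were -0.51 and -0.40. Of 9 hepatocyte markers 4 had a tested probe, and APOB, TF and FGB were not well above background. ALB, the serum albumin, gave -1.94 ± 3.74 and -4.63 ± 0.40 (SD, n = 3 each; limma adjusted p 0.38 and 0.047). Of 5 fibroblast markers 3 were tested and LUM rose by 2.14 under miR-421 (limma adjusted p 0.044), while COL1A2 and COL3A1 were not well above background. Of 3 endothelial markers 2 were tested and neither was called, with PECAM1 not well above background. All 4 leukocyte markers had a tested probe. The part of these markers in the ratios of ASS1 and the arginine genes was not tested.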

How the data were processed

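Scans were read with Feature Extraction 11.5.1.1, per the file headers. Per dye, the deposited intensity columns used here hold a spot's mean signal and its median local background before any normalization. A log10 ratio, also deposited, followed the image software's background subtraction and dye normalization. The whole-series table held log2 ratios per gene name, deposited by the authors with their normalization not stated. Both ratios served as alternatives. Per the file headers, coordinates refer to hg19.

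Intensities were corrected by normexp (offset 50) and normalized by loess within each array. Outlier spots were left out, and spots of 1 probe averaged. A probe was tested when at least 3 of 6 arrays had it well above background in Cy3 or Cy5. R 4.3.3 and limma 3.58.1 (lmFit, eBayes; prior degrees of freedom 2.05) fitted 1 mean per line over all 6 arrays. Means were tested against 0, and their difference too, two-sided, with Benjamini-Hochberg adjustment over all tested probes at 0.05. Channel levels are after Aquantile scaling. Intervals are 95% intervals of the moderated fit, unadjusted. A gene was represented by its tested probe of highest mean intensity.

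The members and lists were chosen with earlier results of these data known. In each list at most the 2 genes with the largest change past the threshold were named. The genes nearest in pattern and the neighbours followed fixed rules as described beside them. The fit was tested on simulated data. Alternatives covered background, normalization, filter, outlier spots, variance model, arrays in the fit, probes per gene and a replicate block. Precision is limited by the array number. Exon and UTR annotation was not used here. Some items of the lists are not reported here.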

Additional observations from a re-analysis of the deposited data

How the results depend on the processing

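In 18 alternatives for each result, ASS1 kept its direction, with means of -3.79 to -3.36 for miR-338-5p and -3.75 to -3.23 for miR-421. The values closest to 0, -3.36 and -3.23, came from averaging both of its probes. The count of arginine genes called for miR-338-5p (1) was 0 with the local background subtracted, the image software's log ratio, no filter, a trended and robust variance, the line's own arrays alone, or the authors' deposited table, and ranged from 0 to 2 with single arrays left out. With median centring the 1 gene called was SLC25A15 in place of SLC7A1, and for miR-421 ASL and NAGS were called. For miR-421 (2) the count was 1 with no filter and 1 to 2 with single arrays left out. In the difference between the lines it was 0 throughout.

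For the other pathway genes, alternatives added after seeing the data changed the 12 calls of miR-338-5p to 7 with median centring or no filter, to 2 with the image software's ratio, the line's own arrays or the authors' table, and to 0 with a trended and robust variance, where no probe of the array was called. Without single arrays they were 2 to 19. The 21 calls of miR-421 became 13 with median centring and 3 to 24 without single arrays.

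Directions changed near 0. SLC25A15 for miR-421 became 0.05 with background subtracted, 0.07 with the software's ratio, 0.03 with probes averaged, 0.16 in the authors' table and 0.08 without miR-421 replicate 2 (-0.13 to 0.08 over the arrays left out). CPS1 for miR-338-5p became -0.06 with median centring, and ODC1 for miR-421 -0.05 without miR-421 replicate 2. With single arrays left out the difference of ARG2 ranged from -0.50 to 0.26, highest without miR-338-5p replicate 3, and that of NAGS from 0 to 0.23, lowest without the miR-421 pool.

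The lines share the replicate numbers 1 and 2. The deviations of same-numbered arrays had correlations of -0.14 and -0.211. With 1 pair of arrays per number, these values cannot settle whether the numbers mark a pairing. With the replicate number as a fixed block the difference of ARG2 was 0.20, and 0 arginine genes were called in the difference. With it as a random block CPS1 passed for miR-421 (-0.35, limma adjusted p 0.047), 3 arginine genes were called for miR-421 and 1 for miR-338-5p, and no other call on the members changed.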
